A study of Mus musculus with 2 samples.

Results

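Gm15915, Gm28857, Gm14198, Malat1 and Neat1 are 5 noncoding RNA genes of the 27998 genes counted in single cells of mouse bone marrow. They were chosen by name: Gm15915 and Gm28857 because their levels were high in the Car1-GFP cells of these data, and the others to be followed beside them. The marrow library was made from CD45+ CD3- Ly6G- cells of naive C57BL/6 mice without a reporter. The other library, called Car1-GFP, came from naive Car1-GFP reporter mice on the C57BL/6 background and held CD45+ cells that expressed GFP, so both groups were untreated and shared the strain. Each library held the pooled cells of 3 mice, was made with the 10x Genomics 3' v2 kit after 10000 sorted cells were loaded, and was the only library of its group. Car1, which encodes a cytosolic carbonic anhydrase, drives the reporter; ages of the mice were not given in the sources used here.

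After filtering, 6268 marrow cells with 8303633 UMIs (unique molecular identifiers, each standing for 1 captured transcript) and 2400 Car1-GFP cells with 42795219 UMIs were used. The median was 1031 UMIs per marrow cell and 15512.5 per Car1-GFP cell, a gap of about 15-fold, and 13 kept barcodes were found in both libraries. Levels are CPM, the UMIs of a gene per 1000000 UMIs of the summed cells, and ratios are log2 ratios of these levels. With 1 library per group there was no spread between replicates and no test, and the 95% intervals given in parentheses cover counting error only.

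Malat1 is an abundant RNA that stays in the nucleus, where it gathers in nuclear speckles, bodies rich in splicing factors. Neat1 is the RNA on which paraspeckles, another kind of nuclear body, are built. Gm15915, Gm28857 and Gm14198 are annotated as antisense RNAs, transcribed from the strand opposite a protein-coding gene, with little known of what they do. Gata2, which encodes a transcription factor of early blood progenitors, is switched down as erythroid cells mature, while globin transcripts accumulate.

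In the mm10 assembly with the GENCODE M21 annotation, Gm15915 (ENSMUSG00000085723) lies on the minus strand of chromosome 10 from 93674218 to 93683322, with 6 exons and 908 exonic bases, inside Ntn4 on the plus strand. Gm28857 (ENSMUSG00000099556) lies on chromosome 1 from 130740162 to 130741327, minus strand, with 2 exons and 425 exonic bases, inside AA986860. Gm14198 (ENSMUSG00000085483) lies on chromosome 2 from 154630002 to 154632636, minus strand, with 2 exons and 948 exonic bases, inside Zfp341. Malat1 (ENSMUSG00000092341, 5795690 to 5802672) and Neat1 (ENSMUSG00000092274, 5824708 to 5845478) are neighbouring long intergenic noncoding RNAs on the minus strand of chromosome 19, with Frmd8 next to Neat1. Exons of Gm28857 share 204 bases with AA986860 and those of Gm14198 share 282 bases with Zfp341, whereas Gm15915 shares 0 with Ntn4. Whether strand was used in counting is not given in the sources used here. It is therefore not known here whether reads from the shared bases were kept apart between partners.

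The start regions of 4 of the 5 genes were found among the RefSeq promoters of build GRCm38.p6, each covering 250 bases before the start to 50 after it on the minus strand. Shown are the RNA with the largest fold difference downward between the outer globin bins (Gm15915, chr10:93683273-93683572), the other one picked for its level in Car1-GFP cells (Gm28857, chr1:130741242-130741541) and, as the contrast with no such letters, Malat1 (chr19:5802623-5802922). Capitals mark GATA, the core letters bound by GATA factors, read on either strand (as TATC on the other).
Gm15915: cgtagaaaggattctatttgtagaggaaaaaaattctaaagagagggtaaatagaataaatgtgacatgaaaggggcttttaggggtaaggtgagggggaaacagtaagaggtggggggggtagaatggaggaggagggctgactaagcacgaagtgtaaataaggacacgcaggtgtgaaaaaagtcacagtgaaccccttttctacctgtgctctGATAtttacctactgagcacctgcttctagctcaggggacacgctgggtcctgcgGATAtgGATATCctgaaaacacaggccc
Gm28857: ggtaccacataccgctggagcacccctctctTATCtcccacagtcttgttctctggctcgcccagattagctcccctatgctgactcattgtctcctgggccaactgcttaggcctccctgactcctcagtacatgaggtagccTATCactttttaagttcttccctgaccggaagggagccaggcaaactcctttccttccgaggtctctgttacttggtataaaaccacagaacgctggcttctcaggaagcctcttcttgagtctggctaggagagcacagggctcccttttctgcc
Malat1: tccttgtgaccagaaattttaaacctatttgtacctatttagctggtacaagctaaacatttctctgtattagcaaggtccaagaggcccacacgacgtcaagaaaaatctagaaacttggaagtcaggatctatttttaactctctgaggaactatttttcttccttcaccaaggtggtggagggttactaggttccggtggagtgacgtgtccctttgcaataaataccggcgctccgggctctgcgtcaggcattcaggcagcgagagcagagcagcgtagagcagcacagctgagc
The Gm15915 window held 4 GATA matches, at positions -33, 22, 28 and 30 from the start base, the last pair overlapping on opposite strands as GATATC. There were 2 matches in the Gm28857 window (-219 and -106), 2 in that of Gm14198 and 0 in that of Malat1. Of 32851 promoters of the same length, 57.9% held at least 1 match, 28.7% at least 2 and 12.6% at least 3. CACCC, the core of sites read by Klf1-type factors, was found once in the windows of Gm28857 and Gm14198, and 0 times in those of Gm15915 and Malat1 (57.5% of promoters). CANNTG, the E-box, was found 2 times in the Gm15915 window and once in each of the others (72.3% of promoters).

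The first question was how the 5 RNAs stood in the 2 libraries. The antisense RNAs were at higher levels in the Car1-GFP library and Malat1 and Neat1 at lower ones. Gm15915 had 8136 UMIs, 190 CPM (186 to 194), in the Car1-GFP library and 59 UMIs, 7.11 CPM (5.41 to 9.17), in the marrow library. Car1-GFP over marrow, its log2 ratio was 4.74 (4.37 to 5.14), which is 26.8-fold. Gm28857 had 304 UMIs (7.10 CPM, 6.33 to 7.95) against 1 UMI (0.12 CPM, 0.00305 to 0.671), a log2 ratio of 5.88 (3.39 to 11.19). These high values are what the first pair was chosen for and are given as a description.

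Gm14198, for which the choice names no high level, had 233 UMIs (5.44 CPM, 4.77 to 6.19) against 2 UMIs (0.241 CPM, 0.0292 to 0.870), a log2 ratio of 4.50 (2.63 to 7.55). Malat1 had 205027 UMIs (4791 CPM) in the Car1-GFP library and 144243 UMIs (17371 CPM) in marrow cells (-1.86, -1.87 to -1.85), so it was 3.63-fold lower. Neat1 had 1253 UMIs (29.3 CPM, 27.7 to 30.9) and 788 UMIs (94.9 CPM, 88.4 to 102), with a log2 ratio of -1.70 (-1.83 to -1.57), 3.24-fold lower. The counting intervals of the libraries did not overlap for any of the RNAs followed here. The share of all genes with such intervals is not given here, so nothing is read from this.

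Malat1 and Neat1 were past 2-fold downward. Of 12076 measured genes (20 or more UMIs in all), 32.7% were past 2-fold downward and 22.2% upward. Nothing is read from that background for the antisense RNAs, since Gm15915 and Gm28857 were chosen for this value and Gm28857 and Gm14198 counted as measured through their Car1-GFP UMIs. The median over measured genes was a log2 ratio of -0.23. TMM scaling adds 0.389 to every library ratio and DESeq2 size factors add 0.385, which turns the split of genes past 2-fold from 2682 higher and 3946 lower to 3720 and 3190 with TMM. No member changed direction with either. Per cell, Malat1 counted 85.4 UMIs in the Car1-GFP library and 23.0 in the marrow library, so on that scale the order of the libraries is the opposite of that in CPM, as it is for Neat1 (0.522 and 0.126 UMIs per cell).

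**Figure D1:**
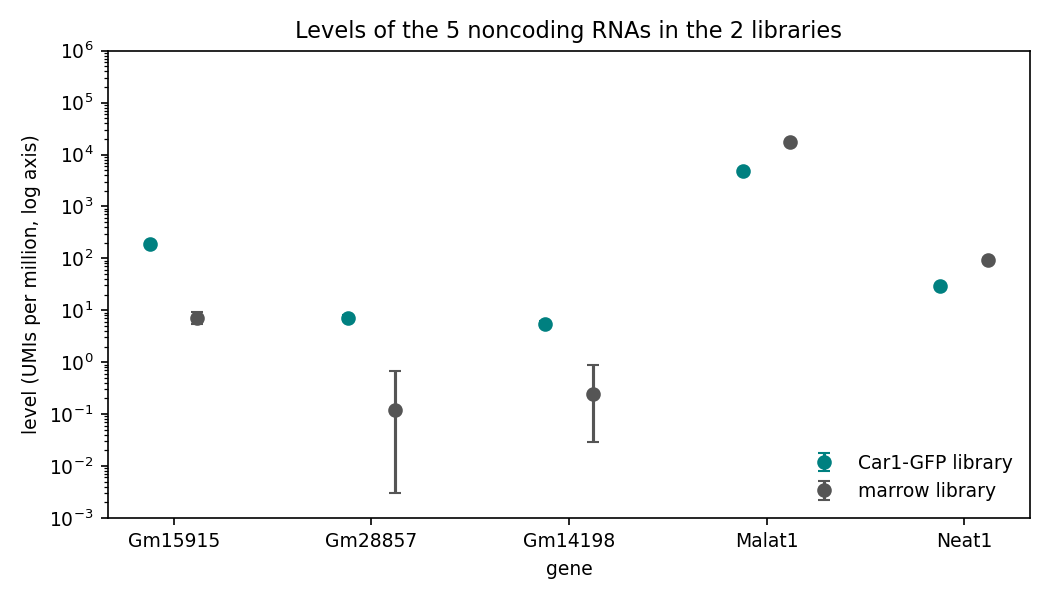
Level of each noncoding RNA (CPM, log axis) in the Car1-GFP and marrow libraries, points with 95% exact Poisson intervals of counting error, 1 library per group. Gm15915, Gm28857 and Gm14198 lie higher in the Car1-GFP library, Malat1 (4791 against 17371) and Neat1 (29.3 against 94.9) lower.

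At an equal depth of 1000 UMIs per cell, a Gm15915 UMI was found in 18.6% (17.1 to 20.2) of 2400 Car1-GFP cells and in 0.520% (0.303 to 0.831) of 3271 marrow cells, the shallower marrow cells being left out. Unthinned shares were 88.6% and 0.766%. Gm28857 was found in 0.833% and 0.0306%, and Gm14198 in 0.458% of Car1-GFP cells and 0 of 3271 marrow cells, which allows up to 0.0917%. Neat1 was found in 4.21% of Car1-GFP and 7.89% of marrow cells (37.3% and 11.4% unthinned), and Malat1 in 96.3% and 99.7%.

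The host and flanking genes reported here stood closer to 0 on the log2 ratio scale than the RNAs did. Gm15915 and Gm28857 were chosen for high levels in Car1-GFP cells, so nothing is read from this gap for them. Ntn4, which encodes the secreted laminin-like protein netrin 4 and hosts Gm15915, stood at 99 UMIs (2.31 CPM) in the Car1-GFP library and 20 UMIs (2.41 CPM) in marrow, a log2 ratio of -0.06 (-0.76 to 0.71). AA986860, the host of Gm28857, had 52 and 4 UMIs (1.33, -0.11 to 3.26). Zfp341, the zinc finger gene that hosts Gm14198, had 83 and 6 UMIs (1.42, 0.24 to 2.91). These hosts thus stood between 1 and 3 CPM in the Car1-GFP library. Snrpf, next to Ntn4, was at -0.24, Pfkfb2, a regulator of glycolysis next to Gm28857, at -0.35 (-1.11 to 0.49), and Chmp4b, a membrane remodelling gene next to Gm14198, at -1.26. Frmd8, next to Neat1, was at -0.57. Usp44 (0 and 1 UMI), Fcamr (0 and 0) and 4930519P11Rik (4 and 2) were too low to describe.

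Within the Car1-GFP library, cells were ordered by the share of their UMIs that came from globin genes and cut into 5 bins of 480 cells. Gm15915 was lower in the bin with the most globin than in the other 4, and Gm14198 was higher. Globin shares ran from 0.211 to 0.748% over bins 1 to 4 and from 0.750 to 54.0% in bin 5, so the last bin holds nearly the whole range of globin. Median depths were 16008, 18577.5, 14958, 10189 and 16943 UMIs.

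Gm15915 stood at 216, 208, 221, 203 and 99.2 CPM over the 5 bins, with 1986, 2033, 1873, 1407 and 837 UMIs. The first 4 bins lay close together and the fifth was lower than each, with an interval of 92.6 to 106. The log2 ratio of bin 5 over bin 1 was -1.13 (-1.24 to -1.01). Counted per cell it went from 4.14 to 1.74 UMIs. With every cell thinned to 4000 UMIs, the share of cells with a Gm15915 UMI was 57.7% (53.1 to 62.2) in bin 1 and 36.0% (31.7 to 40.5) in bin 5 (92.5% and 78.3% unthinned). With 10 bins in place of 5, the last 2 stood at 110 and 85.9 CPM.

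Gm14198 stood at 3.05, 3.17, 4.25, 3.33 and 13.6 CPM, from 28, 31, 36, 23 and 115 UMIs. Its interval in bin 5, 11.2 to 16.4, lay above those of the other 4 bins, the highest of which ended at 5.89. The log2 ratio of bin 5 over bin 1 was 2.16 (1.55 to 2.81), or 4.47-fold. With 10 bins, the last 2 stood at 11 and 16.8 CPM and the other 8 between 1.28 and 5.0.

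Gm28857 showed no such order: it stood at 7.84, 7.45, 5.55, 8.39 and 6.40 CPM, and its ratio of bin 5 over bin 1 was -0.29 (-0.83 to 0.24). Malat1 was at 4789, 4670, 5007, 5754 and 3927 CPM (-0.29, -0.31 to -0.27), highest in bin 4, where cells were shallowest. Neat1 was at 28.9, 29.0, 32.7, 34.3 and 22.5 CPM (-0.36, -0.64 to -0.08) and also peaked in bin 4. Gata2 itself stood at 59.3, 55.1, 65.8, 76.9 and 22.7 CPM. Of the 5 RNAs, Gm14198 passed 2-fold upward and Gm15915 2-fold downward between the outer bins, against 4.64% and 9.66% of 9917 measured genes.

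**Figure D2:**
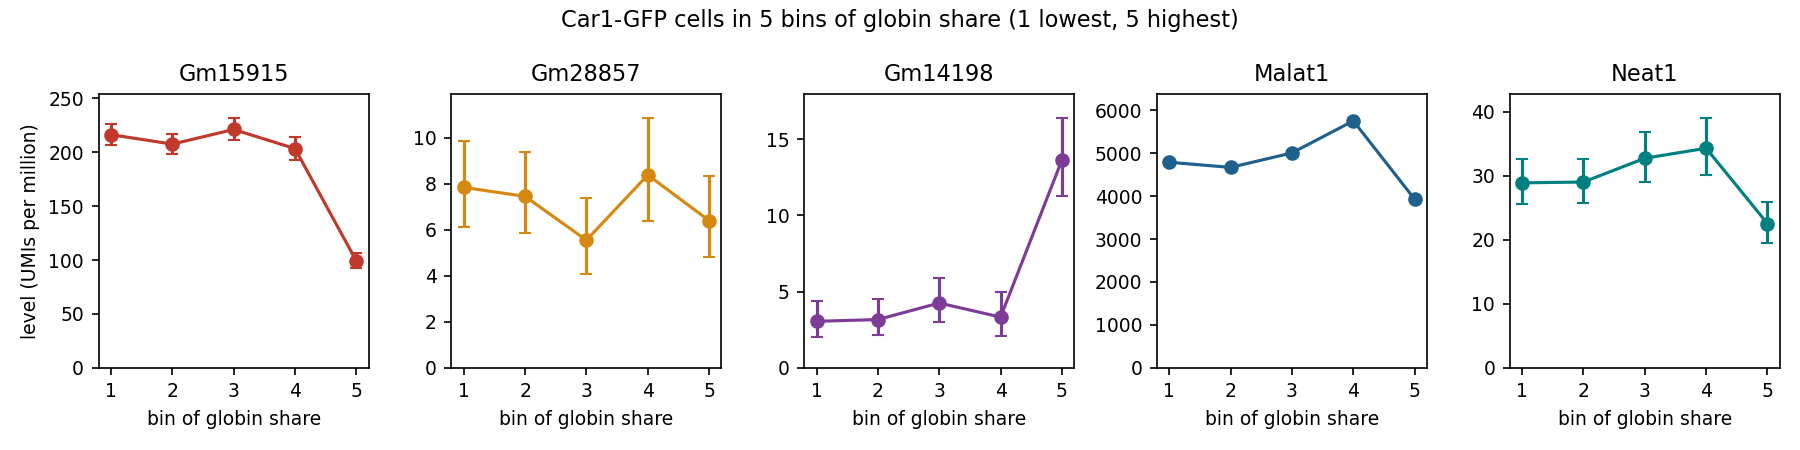
Level of each RNA (CPM, linear axes from 0) in 5 bins of 480 Car1-GFP cells ordered by globin share, with 95% exact Poisson intervals of counting error. In bin 5 Gm15915 is at 99.2 and Gm14198 at 13.6, outside the range of the other bins, while Gm28857 has no order.

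Ntn4 went the other way from the RNA inside it: it stood at 1.74 CPM (16 UMIs) in bin 1 and 5.45 CPM (46 UMIs) in bin 5, a log2 ratio of 1.64 (0.80 to 2.56). AA986860 had 6 and 30 UMIs (2.44, 1.15 to 4.0), while the interval of Gm28857 included 0. Zfp341 had 12 and 20 UMIs (0.86, -0.24 to 2.02). Since AA986860 and Zfp341 share exonic bases with their partners, only the contrast of Gm15915 with Ntn4 is free of shared exons.

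The same split was seen when cells were grouped by clusters made without these RNAs. Of 12 Car1-GFP clusters, 5 were called erythroid progenitor-like (1203 cells, from markers such as Klf1 and Epor) and 3 late erythroid-like (347 cells, from markers such as the globins, Alas2 and Slc4a1), and 4 stayed unnamed. Gm15915 was at 195 CPM in progenitor-like and 84.6 CPM in late-like cells (-1.20, -1.33 to -1.07). Gm14198 was at 3.67 and 15.3 CPM (2.06, 1.65 to 2.48). Gm28857 (0.12), Malat1 (-0.04) and Neat1 (0.01) differed little between these classes. As background, 4.19% of 10567 measured genes were past 2-fold upward in late-like cells and 11.3% downward. Globin share and these classes both rest on globin genes, so the class comparison is not separate evidence. Car1-GFP clusters were scored against the marrow library, and the 4 unnamed ones also had erythroid progenitor as their best class. The names thus do not show that the 5 progenitor-like clusters were more erythroid than the unnamed ones.

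By cluster, Gm15915 ran from 40.1 CPM in cluster c11 to 305 CPM in cluster c0. The latter was unnamed, with Vim, Egr1, Jun and Gata2 leading, and had a median of 6367 UMIs. Over the 5 progenitor-like clusters (c1, c2, c3, c6 and c8), Gm15915 stood at 259, 228, 180, 146 and 124 CPM and Gm14198 at 2.58, 2.64, 3.33, 5.0 and 6.70 CPM, the reverse order. The late-like clusters c4 and c9 held 83.0 and 84.7 CPM of Gm15915 and 16.1 and 15 CPM of Gm14198. Cluster c10, of 25 cells with 49.2% globin, held 127 CPM of Gm15915 and 0 UMIs of Gm14198 and Gm28857.

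Cluster c5, of 183 cells led by the granulocyte genes Camp, Ngp and S100a8 and the platelet gene Pf4, stood at 224 CPM of Gm15915 and 8852 CPM of Malat1. All 10 neutrophil markers together came to 1781 CPM there, and their part in these values was not tested. Without c5 and c10 the Malat1 globin ratio was -0.21. Cluster c11, of 12 cells led by the granule genes Gzmb and Cpa3, had the highest Malat1 level, 25137 CPM.

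**Figure D3:**
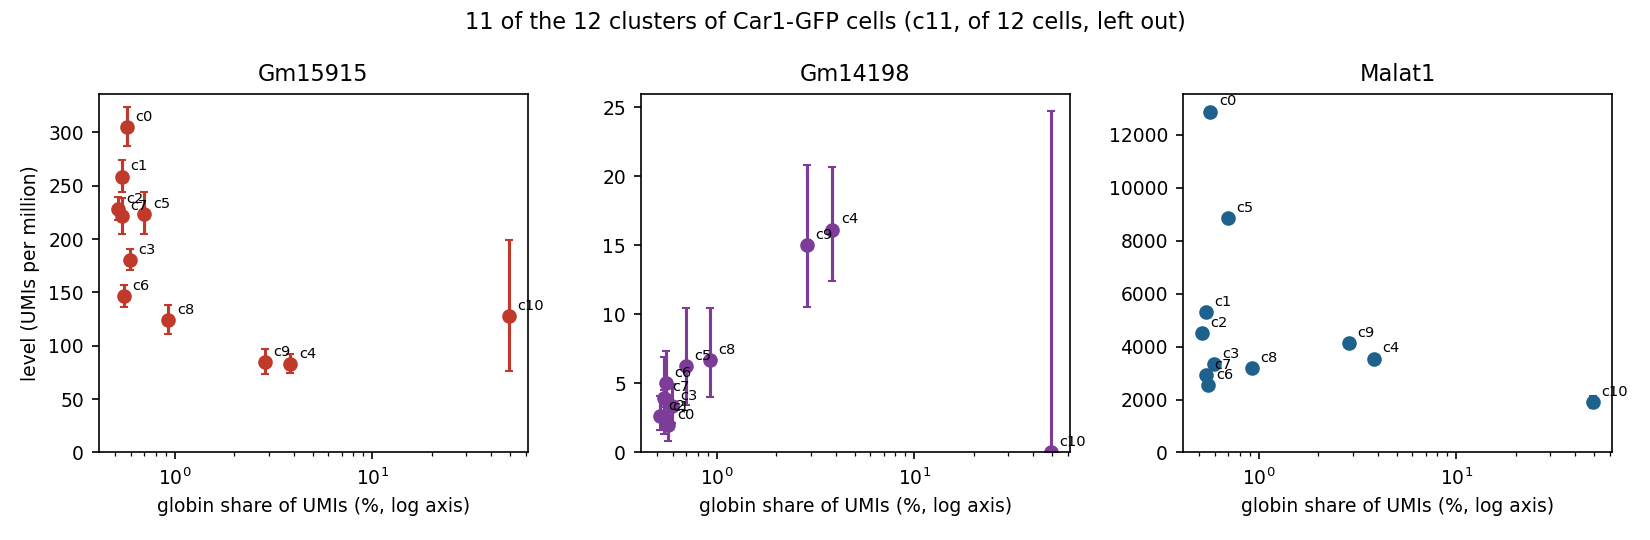
Level of Gm15915, Gm14198 and Malat1 (CPM, linear axis) against globin share (%, log axis) in 11 of 12 clusters of Car1-GFP cells, labelled c0 to c10, with 95% exact Poisson intervals of counting error. The late-like clusters c4 and c9 are low in Gm15915 (83.0 and 84.7) and high in Gm14198 (16.1 and 15).

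Next the 5 RNAs were followed along Gata2. Cells were thinned to 4000 UMIs and classed by the Gata2 UMIs left: 1793 cells had 0, 425 had 1 and 182 had 2 or more, with median full depths of 18536, 9646 and 6887.5 UMIs. Malat1 stood at 4247, 6540 and 10430 CPM over these classes, a log2 ratio of 1.30 (1.27 to 1.32) between the outer ones. Neat1 stood at 25.0, 43.9 and 70.8 CPM (1.5, 1.21 to 1.79). Both were higher in each next class in CPM, but per cell the counts were 83.8, 89.4 and 92.3 UMIs for Malat1 and 0.493, 0.60 and 0.626 for Neat1. These 2 passed 2-fold upward, against 9.86% of 10789 measured genes, and none of the 5 passed it downward (3.87%). With Gata2 read from the full counts the ratios were 0.45 for Malat1 and 0.61 for Neat1, and neither passed 2-fold within any of 5 bins of cells by UMI total.

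Gm15915 was at 181, 229 and 259 CPM (0.52, 0.37 to 0.66), while its count per cell ran the other way, from 3.56 over 3.13 to 2.29 UMIs. Gm28857 was at 6.93, 7.91 and 8.08 CPM (0.22, -0.71 to 1.02). Gm14198 was at 5.63, 4.99 and 3.11 CPM from 199, 29 and 5 UMIs (-0.86, -2.50 to 0.39). The intervals of the last pair include 0, so no difference was detectable at this depth. Summed megakaryocyte markers went from 82.4 to 298 CPM and summed basophil or mast cell markers from 9.22 to 43.5 CPM between the outer Gata2 classes, with 8 of 8 and 6 of 8 markers detected in the class with the most Gata2. The part of such cells in these values was not tested.

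The level of Malat1 in CPM also moved with the depth of a cell. In 5 bins of 480 cells by UMI total, with medians of 5757, 9305.5, 15512.5, 22943 and 33610.5 UMIs, Malat1 went from 12830 over 8256, 4949 and 3624 to 3226 CPM. Its count per cell was 74.6, 78.0, 77.4, 83.8 and 113 UMIs, a narrower range than that of the depth. Neat1 had the same order, with 78.9, 61.7, 33.4, 20.9 and 16.0 CPM and 0.458, 0.583, 0.523, 0.483 and 0.563 UMIs per cell. The log2 ratio of the deepest over the shallowest bin was -1.99 for Malat1 and -2.30 for Neat1 (12.1% of 10063 measured genes were lower by 2-fold or more).

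Gm15915 stood at 293, 239, 191, 160 and 180 CPM over the same bins (-0.70) and at 1.70, 2.26, 2.98, 3.70 and 6.31 UMIs per cell, so its count per cell was higher in each deeper bin, while that of Neat1 had no order. The depth ratio of Gm28857 was 0.24 (-0.52 to 1.09, from 114 and 16 UMIs), so no difference was detectable. Gm14198, from 2.15 to 5.22 CPM, was at 1.28 (0.099 to 2.76), with 6 UMIs in the shallowest bin (4.1% of genes were past 2-fold upward). It counted as measured through its UMIs in the deepest bin, so nothing is read from that share. A list of 10 immediate early genes that respond to cell dissociation, added after the data were seen, summed to 1197, 783, 448, 326 and 290 CPM over the depth bins and to 381, 623 and 1026 CPM over the Gata2 classes. It moved with Malat1 in both. Between the libraries it went the other way from Malat1 (-1.86), with a median of 2.88. Of its 10 genes 7 (70%) were past 2-fold upward in Car1-GFP cells and 1 (10%) downward, beside 22.2% and 32.7% of measured genes. Over the unsplit marrow erythroid-like cells, 8 of 9 measured (88.9%) were past it upward (median 2.52) and 0 downward. Of all measured genes 10.8% and 33.9% were, and Malat1 was at -1.77. The part of this list in the Malat1 values was not tested.

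Because depth differed between the groups, the globin and Gata2 ratios were taken again within each depth bin, a step added after the data were seen. The globin ratio of Gm15915 was -0.80, -1.05, -1.32, -1.16 and -1.02, with all 5 intervals below 0. That of Gm14198 was 2.12, 4.24, 1.48 and 2.18 in bins 2 to 5, with intervals above 0, and could not be formed in the shallowest bin. Both therefore had the same direction at each depth that gave a value. The globin ratio of Malat1 went from -0.80 over -0.60, -0.36 and -0.13 to -0.00061 in the deepest cells. Its Gata2 ratio, 1.30 over all cells, was 0.45, 0.44, 0.43, 0.28 and 0.32 within the bins. The Gata2 ratio of Gm15915 was 0.03, 0.31, 0.35, -0.15 and 0.06 and that of Neat1 0.79, 0.38, 0.04, -0.92 and 0.14, so neither kept its direction in the fourth bin. The class with the most Gata2 held 99, 55, 21, 4 and 3 cells in these bins.

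**Figure D4:**
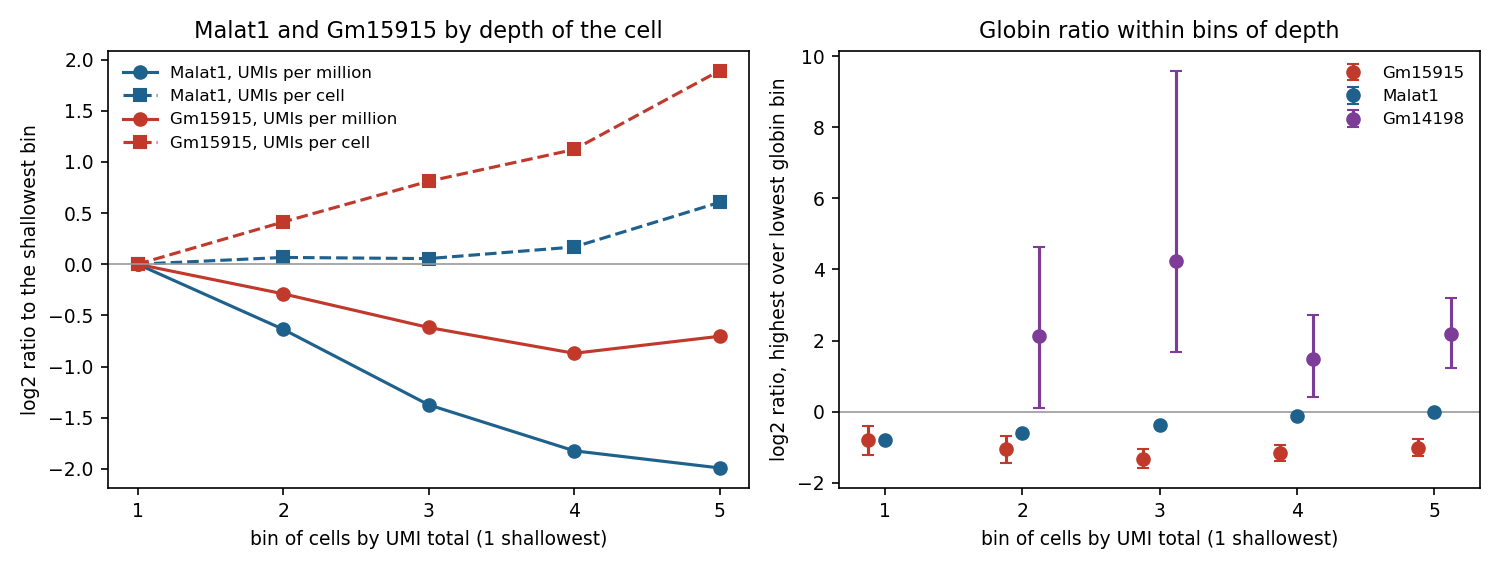
Left, log2 ratio to the shallowest bin of the level in CPM (circles) and of the UMIs per cell (squares) for Malat1 and Gm15915 in 5 bins of Car1-GFP cells by UMI total. Right, log2 ratio of the highest over the lowest globin bin within each depth bin, with 95% exact binomial intervals, where Gm15915 stays below 0 (-0.80 to -1.32) and Malat1 nears 0.

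The marrow library showed in which other cells the RNAs were found. Most Gm15915 UMIs lay in the cluster that held erythroid progenitors, while Malat1 and Neat1 were found in every class. Clusters were named from marker genes, and 9 classes of at least 50 cells were compared. The cluster named erythroid progenitor-like (621 cells, called c4) held 52 of the 59 Gm15915 UMIs, at 45.5 CPM (34.0 to 59.6). Late erythroid-like cells held 1 UMI (135 cells), neutrophil-like cells 5 (2007 cells, 2.14 CPM, 0.696 to 5.0) and granulocyte-monocyte progenitor-like cells 1 (753 cells). It was 0 in monocyte-like (1803 cells), plasmacytoid dendritic-like (558), conventional dendritic-like (167), NK and innate lymphoid-like (134) and basophil or mast cell-like (90) cells. A count of 0 allows up to 1.44 CPM in monocyte-like and 29.6 CPM in basophil or mast cell-like cells.

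At 1000 UMIs per cell, 3.33% (1.83 to 5.53) of 420 erythroid progenitor-like cells had a Gm15915 UMI (6.60% unthinned, median depth 1272). In classes outside the erythroid side, the thinned share was 0.0974% (0.00247 to 0.541) of 1027 neutrophil-like cells (median depth 1016), 0.156% (0.00395 to 0.866) of 641 granulocyte-monocyte progenitor-like cells (1924) and 0 of 827 monocyte-like cells, which allows up to 0.363% of cells with a UMI (957). Between the 2 erythroid-like classes and the other marrow cells, the log2 ratio of Gm15915 was 5.40 (4.18 to 6.91), from 53 and 6 UMIs. Of 10429 measured genes 19% were past 2-fold upward and 13.7% downward, and Neat1 was past it downward. Gm15915 counted as measured through its erythroid-like UMIs, so nothing is read from that background for it. Gm28857, with 1 UMI against 0, and Gm14198, with 1 against 1, had too few counts in marrow to place them in any class. The erythroid name therefore rests on marrow counts for Gm15915 alone.

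Cluster c4 was a mixture, so it was clustered again, a step added after the data were seen. Its parts included 2 erythroid progenitor-like ones, s1 of 123 cells (led by Mt2, Car1 and Nfia) and s3 of 95 cells (led by Trib2, Csrp3 and Car1, with Gata2 in its top 10). The name was weaker for s3, with a marker score of 1.55 and 6 markers at 2-fold, beside 2.78 and 9 for s1. Csrp3 and Gata2 were also among the 10 leading genes of the basophil or mast cell-like cluster. Gm15915 stood at 71.3 CPM (34 UMIs) in s1 and 103 CPM (13 UMIs) in s3. It was at 10.6 and 15.8 CPM in the stem-like parts and 5.27 CPM in the lymphoid progenitor-like part. With these parts, 353 erythroid-like cells held 48 of 59 Gm15915 UMIs (81.4%), 53.5 CPM against 1.49 CPM elsewhere, a log2 ratio of 5.17 (4.20 to 6.26). The 13 UMIs of s3 are part of those 48. Ntn4 had 19 UMIs in the unsplit erythroid-like classes and 1 in the other marrow cells.

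Late over progenitor-like cells of the marrow, Gm15915 had 1 UMI against 52 (-3.75, -9.08 to -1.20), the same side as in the Car1-GFP library. Against the 218 cells of s1 and s3 alone, it had 1 UMI against 47 (-4.52, -9.86 to -1.97). Malat1 was at -0.69 with c4 whole and at -0.041 (-0.10 to 0.020) against s1 and s3. Neat1 was at -0.42 (-1.57 to 0.57) and 0.18 (-1.09 to 1.38), so no difference was detectable for it. Of 6897 measured genes 19% were past 2-fold downward in late-like cells and 7.76% upward. Since Gm15915 counted as measured through its progenitor-like UMIs, nothing is read from these shares for it.

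Malat1 was highest in plasmacytoid dendritic-like cells (45484 CPM), followed by NK and innate lymphoid-like (33897), conventional dendritic-like (31563), basophil or mast cell-like (25952), erythroid progenitor-like (17782), monocyte-like (16872), neutrophil-like (13520), granulocyte-monocyte progenitor-like (12164) and late erythroid-like cells (11006). Per cell the order differed: there were 41.6 UMIs in plasmacytoid dendritic-like, 32.7 in erythroid progenitor-like and 31.0 in NK-like cells, 24.0 in late erythroid-like, 19.5 in monocyte-like and, lowest, 15.7 in neutrophil-like cells. The erythroid progenitor-like values are those of the whole mixture c4, and its parts s1 and s3 together stood at 11323 CPM. Within c4, Malat1 ran from 8478 CPM in s1 over 22089 CPM in s3 to 34216 CPM in the stem-like part s2. Its ratio of erythroid-like over other marrow cells was -0.10 (-0.12 to -0.08) with c4 whole, -0.69 with c4 split and 0.12 with every cell weighted equally, so its direction depended on that choice.

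Neat1 was highest in conventional dendritic-like cells (206 CPM, 142 to 289), basophil or mast cell-like cells (168, 97.9 to 269) and monocyte-like cells (146, 130 to 163), whose intervals overlap. Neutrophil-like (90.5) and plasmacytoid dendritic-like cells (90.1) followed, then granulocyte-monocyte progenitor-like (70.2), NK-like (49.0), erythroid progenitor-like (45.5) and late erythroid-like cells (33.9, 16.3 to 62.4). The erythroid progenitor-like value is that of c4 whole, and s1 and s3 together stood at 29.9 CPM. Neutrophil-like cells were not uniform, since 1 of their clusters, c7, stood at 225 CPM. Erythroid-like cells as a whole held 43.1 CPM against 106 CPM in other marrow cells (-1.29, -1.69 to -0.92).

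**Figure D5:**
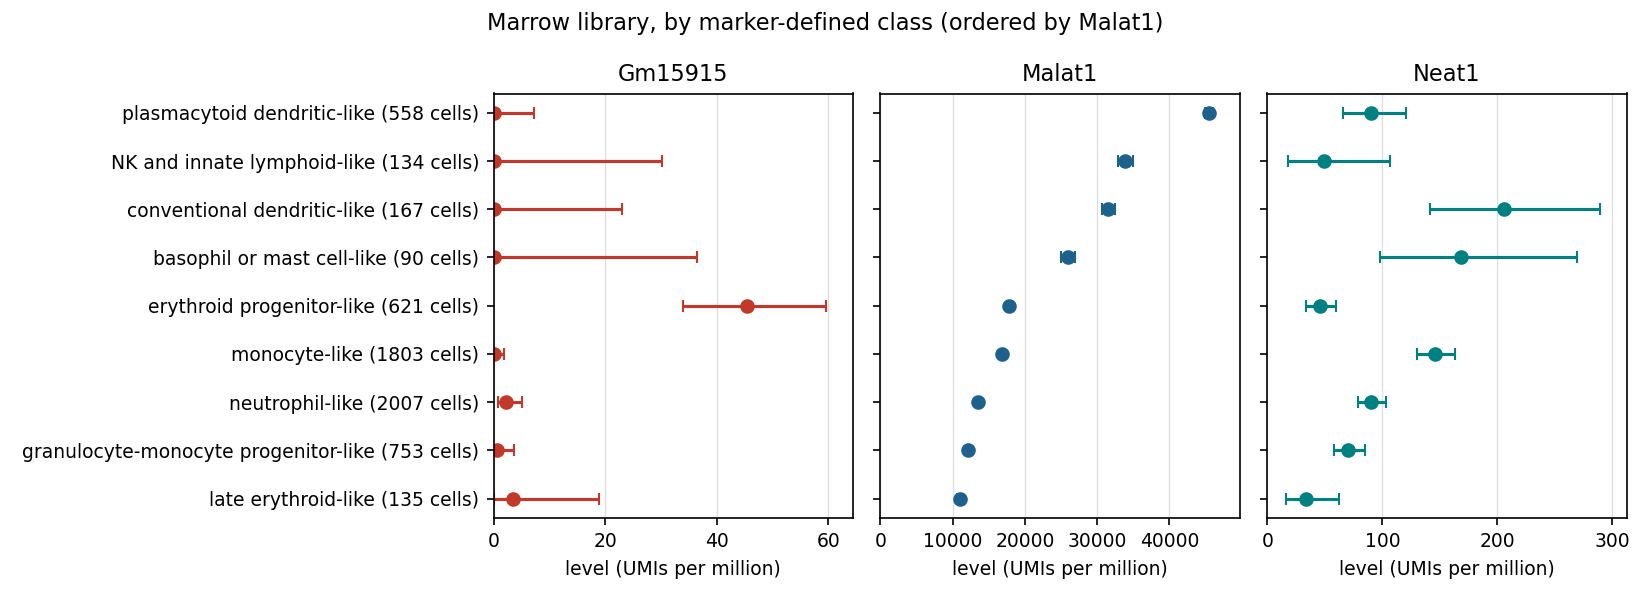
Level of Gm15915, Malat1 and Neat1 (CPM, linear axes from 0) in 9 marker-defined classes of the marrow library, ordered by Malat1, with 95% exact Poisson intervals of counting error. Gm15915 stands apart in erythroid progenitor-like cells (45.5), Malat1 is highest in plasmacytoid dendritic-like cells (45484) and Neat1 in conventional dendritic-like cells (206). The erythroid progenitor-like class is the whole of cluster c4, a mixture.

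Set against marrow erythroid-like cells only, the Car1-GFP library differed less. Over the 756 unsplit cells, the log2 ratio of Gm15915 was 2.37 (1.98 to 2.79), that of Malat1 -1.77 and that of Neat1 -0.56 (-0.93 to -0.17), while Gata2 was level (-0.04). Over the 353 cells of the split, Gm15915 was at 1.83 (1.42 to 2.27), Malat1 at -1.23 and Neat1 at -0.09 (-0.63 to 0.50). Of 11255 measured genes, 10.8% were past 2-fold upward and 33.9% downward in the unsplit comparison. Nothing is read from this background for Gm15915, which was chosen for its level in Car1-GFP cells. Gm28857 and Gm14198 each rested on 1 UMI in the 353 cells, with ratios of 2.67 (0.18 to 7.98) and 2.29 (-0.20 to 7.60). The classes were not matched in stage, and the depth gap remained.

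Other genes of the same kinds gave the setting. Of 5909 long noncoding genes in the files 586 were measured over both libraries; 128 stood past 2-fold upward in Car1-GFP cells and 211 downward (median -0.37), that is 21.8% and 36.0% beside 22.2% and 32.7% of all measured genes. A list of 46 general noncoding RNAs, 25 of them in the files and 18 measured, held 3 higher (16.7%) and 9 lower (50%), with a median of -0.83 beside -0.23 for all measured genes. Among these, Mirt1 (-6.13) and Mir142hg (-4.03), the host of a blood cell microRNA, were lower, and Pvt1 (3.95), the neighbour of Myc, and the snoRNA host Snhg12 (2.48) higher. Along globin share, 1 of 15 measured (6.67%, beside 4.64% of all genes) passed 2-fold upward (Lockd, 1.21, beside the cell cycle gene Cdkn1b) and 0 downward, with Kcnq1ot1 at -0.73 and Snhg6 at -0.70.

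The protein genes of the nuclear bodies were described in the same way. Of 23 paraspeckle protein genes, 3 passed 2-fold upward between the libraries and 2 downward, that is 13% and 8.70% beside 22.2% and 32.7% of all measured genes, with a median of 0.24 beside -0.23. Dazap1 (1.80), Nudt21 (1.69) and Pspc1 (1.49), a core paraspeckle protein, were higher, and Cpsf7 (-1.24) and Sfpq (-1.16), a core protein too, lower. Between the outer globin bins 0 were higher and 1 lower (median -0.01 beside -0.16 for all genes). Of 20 nuclear speckle protein genes, 4 were higher (20%) and 1 lower (5%) between the libraries (median 0.19; the splicing factors Srsf3 at 1.62 and Srsf7 at 1.5, the kinase gene Clk1 at -1.29), and 0 passed 2-fold along globin share (median -0.10) or along Gata2 (median -0.02).

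Erythroid genes served as the guide to the lineage. Of 19, 16 passed 2-fold upward in Car1-GFP over marrow and 0 downward (84.2% beside 22.2% of all measured genes; median 2.53), among them Rhd, a blood group protein (4.55), Car2, a carbonic anhydrase (4.08), and Gfi1b, a repressor (3.94). Between the outer globin bins 7 were higher (36.8% beside 4.64%) and 0 lower (median 0.55), led by the band 3 gene Slc4a1 (3.27) and the heme synthesis gene Alas2 (3.21). In marrow, 18 of 19 were higher in erythroid-like cells (94.7% beside 19%; median 5.12). The list follows the sort and the classes by construction and supports no direction of the 5 RNAs.

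Finally, the genes with the most similar levels were listed for each RNA, by Pearson's r of log2(CPM + 10) over 20 equal bins of globin share among 4446 genes; the bins share a library and its depth. Closest to Gm15915 were Tagln2 (0.99), Tma16, Myc, Vamp5 and Cmtm7 (0.98 each), with Car1 at 0.95, Gata2 at 0.91 and Car2 at -0.95. Closest to Gm14198 were Klhdc2 and Cit (0.94 each) and Incenp (0.92), the last pair known for roles in cell division, followed by Ptdss2 and Anp32b. Closest to Malat1 were Ddah2 (0.94), Csrp3 and the immediate early gene Jun (0.92 each), Ctla2a and Hist1h1c. Closest to Neat1 was Csrp3 (0.82), then Btg1, Il10rb, Hist1h1c and Itm2b. For Gm28857 the best was Anapc7 (0.64), with 304 UMIs spread over the 20 bins.

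Over the 9 marrow classes, which share a library and differ in depth, the closest of 5452 genes were the platelet chemokine gene Pf4 (0.92), Cdv3, Rangrf, Mt2 and Mospd3 for Gm15915, with Car1 at 0.77. Since 52 of 59 Gm15915 UMIs lay in the class made of c4, this order rests on that 1 class, a mixture with a megakaryocyte-like part of 25 cells led by Pf4. For Malat1 they were Mxd4 (0.96), Zmym2, Ptms, Gm5547 and the kinase gene Fyn. For Neat1 they were Elf4 and Stat6, transcription factors (0.96 each), Bcl10, Rnf130 and the leukotriene pathway gene Alox5ap. Gm28857 and Gm14198 had too few marrow UMIs to be ranked.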

How the data were processed

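The authors deposited UMI counts, a whole number for each gene in each barcode, made with Cell Ranger 2.1 and Seurat 2 on mm10, per the submitters' processing notes. Use of strand in counting is not given in the sources used here. The members and gene lists were chosen with earlier results of these data known. Groups came from the labels, and 0 columns of values were left unmapped.

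Barcodes with under 500 UMIs (0) or a mitochondrial share of at least 10% were dropped: 19 (0.294%) of 6458 in marrow and 122 (4.84%) of 2522 in Car1-GFP. Scrublet called 171 doublets (2.66%) in marrow, which were removed, and 9 (0.375%) in Car1-GFP, where a share under 0.5% was taken as a failed call and none were removed. Counts of kept cells were summed. Ratios carry exact binomial and levels exact Poisson intervals (95%). A gene counted as measured from 20 UMIs over both sides, and counts past 2-fold set a count of 0 at a floor of 3 counts (0.361 CPM in marrow, 0.0701 CPM in Car1-GFP). No test between groups was made.

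Each library was clustered alone (scanpy 1.11.5, Python 3.11.15, anndata 0.12.19, leidenalg 0.10.2): 2000 variable genes, 30 components, 15 neighbours, resolution 1, seed 1, with 29 noncoding genes left out. Clusters were named by their best marker score, given 3 or more markers at 2-fold. Marrow clusters were scored against the other marrow cells and Car1-GFP clusters against the marrow library. A cluster stayed unnamed where another class had more markers among its 10 leading genes. So did a shallow cluster with no marker of its best class there. edgeR 4.0.16 and DESeq2 1.42.0 (R 4.3.3) gave alternative scaling only. The ratio and count code was tested on simulated data. Gene positions come from GENCODE M21, in which 27645 of 27998 identifiers were found.

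Named were all 5 members, Gata2, flanking and overlapping genes, of each list the 4 largest ratios at most in a comparison, and the 5 genes most alike each member among those with a mean of at least 20 CPM. Genes that lead a cluster, genes given as examples of markers, Sfpq, and Car1 and Car2 beside the most alike genes were named after their values were seen. Values of 1 gene that this rule names are not reported here. Alternatives were other scalings, filters, bins, weights and clusterings.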

Additional observations from a re-analysis of the deposited data

Results flagged for a closer look

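In the 122 Car1-GFP barcodes set aside for a mitochondrial share of at least 10%, Gm15915 and Gm28857 stood above their marrow levels. Only the runs without a mitochondrial filter used these barcodes. Gm15915 stood at 152 CPM (126 to 182, from 117 UMIs) in them, beside 190 CPM in the kept Car1-GFP cells and 7.11 CPM in kept marrow cells. Gm28857 stood at 10.4 CPM (4.49 to 20.5, from 8 UMIs), beside 7.10 and 0.12 CPM. Gm15915 and Gm28857 were chosen for high levels in the Car1-GFP cells of these data, so their direction here is not separate evidence. Gm14198 stood at 3.90 CPM (0.805 to 11.4, from 3 UMIs), beside 5.44 and 0.241 CPM. Its interval overlaps that of kept marrow cells (0.0292 to 0.870), so no difference was detectable for it. These barcodes had a median of 5773.5 UMIs.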

How the results depend on the processing

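No paired analysis was possible because each group had 1 library, and for the same reason leaving out replicates in turn was not run. Every value rests on 1 pool of 3 mice per group, and Gm28857 and Gm14198 had too few marrow UMIs to be placed. Across all settings run, the library ratio kept its direction for each of the 5 RNAs, but Gm15915 and Gm28857 were chosen for it. Counted per cell, Malat1 (85.4 UMIs in Car1-GFP, 23.0 in marrow) and Neat1 (0.522 and 0.126) had the opposite direction. The globin direction held for Gm15915 and, in the 4 depth bins that gave a value, for Gm14198. It also held for Malat1 and Neat1, but their ratios shrank to -0.00061 in depth bin 5 and -0.0087 in depth bin 4. For Gm28857 it was the opposite in depth bins 2 (0.21, -1.33 to 1.70) and 4 (0.24, -0.78 to 1.33). The marrow direction held for Gm15915 and Neat1. The causes of the shifts below were not tested. The depth bins, the split of cluster c4 and the runs without clusters were added after the data were seen.

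Library ratios of Malat1 (-1.86) and Neat1 (-1.70) were -1.47 and -1.31 with TMM as with DESeq2 scaling, -1.62 and -1.40 with cells weighted equally and -1.55 and -1.38 in cells with at least 1000 UMIs. Malat1 was at -1.83 with no mitochondrial filter, and Gm15915 at 5.65 with cells weighted equally. The general noncoding list median was -0.44 with TMM, -0.45 with DESeq2 and -0.70 with no filter on low counts. Without that filter 804 genes were at least 2-fold higher and 1571 lower between the outer globin bins, instead of 460 and 958.

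With 10 globin bins in place of 5, the ratio was -1.43 for Gm15915, 3.47 for Gm14198 and -0.38 for Malat1. Malat1 and Neat1 were at -0.58 and -0.65 with cells weighted equally and at -0.58 and -0.74 when thinned. Malat1 was at -0.24 with globin out of the denominator and -0.21 without clusters c5 and c10. Globin ratios within depth bin 1 were -0.80 for Gm15915, -1.52 for Gm28857 and -0.80 for Malat1. In bin 2 they were -0.60 for Malat1 and -1.36 for Neat1. In bin 3 they were -1.32 for Gm15915, -1.30 for Gm28857, 4.24 for Gm14198, -0.36 for Malat1 and -0.073 for Neat1. In bin 4 they were 0.24 for Gm28857, 1.48 for Gm14198, -0.13 for Malat1 and -0.0087 for Neat1, and in bin 5 -0.00061 for Malat1.

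Gata2 ratios with Gata2 read from full counts were 0.45 for Malat1 and 0.61 for Neat1. Malat1 was at 1.18 with cells weighted equally, 1.35 with no mitochondrial filter, 1.15 in the lowest 3 globin bins (Gm15915 0.22) and 1.34 without clusters c5 and c11. Within depth bins 1 to 5, Gm15915 was at 0.034, 0.31, 0.35, -0.15 and 0.055, Malat1 at 0.45, 0.44, 0.43, 0.28 and 0.32, and Neat1 at 0.79, 0.38, 0.038, -0.92 and 0.14. Gm14198 was at 0.77 in bin 5.

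In marrow, the ratio of erythroid-like over other cells at Leiden resolution 2 was -0.96 for Malat1 and -1.97 for Neat1, and with c4 split -0.69 and -1.72. Malat1 was at -0.072 with seed 2, -0.66 in cells with at least 1000 UMIs and 0.12, the opposite direction, with cells weighted equally.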
